A study of Mus musculus with 2 samples.

Results

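The genes of the NMDA receptor subunits were measured in cortex from the left hemisphere of 2 adult females. The 7 genes were chosen by symbol, namely Grin1, Grin2a, Grin2b, Grin2c, Grin2d, Grin3a and Grin3b, out of 55536 annotated genes in the tables. No measured value entered that choice, although earlier results of these data were known when it was made. Both mice were B6CASTF1/J, a first-generation hybrid of C57BL/6J and CAST/EiJ, and were 8 to 10 months old. They carried no labelled treatment or engineered allele. Each gave 1 library from 300 ng of total RNA, prepared with a directional kit and ERCC spike-ins, which are synthetic RNAs added in known mixtures. Replicate 1 is animal 1 and replicate 2 is animal 5, although the labels give both the same donor entry. Together they form a single group with no contrast, so no test was run, and differences between the libraries may be partly technical.

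NMDA receptors are glutamate-gated channels that pass calcium when glutamate, a co-agonist and depolarisation coincide, which makes them central to synaptic plasticity in the cortex. Each receptor holds the obligatory subunit GluN1, encoded by Grin1, which binds glycine or D-serine, together with glutamate-binding GluN2 subunits or glycine-binding GluN3 subunits. The GluN2 subunit sets how long the channel stays open and how strongly magnesium blocks it, and alternative splicing of Grin1 sets its sensitivity to protons and its routing to the membrane.

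The Grin1 transcripts of this cortex differed in 3 coding choices, and the elements are shown because the splice results turn on them. Their sequences were read from the GENCODE M21 transcripts of build GRCm38 (mm10), on the minus strand, and are printed 5′ to 3′. Capitals mark the element and lower case the 15 bases of neighbouring coding sequence in the transcript. N1 is a cassette exon of 63 nt (21 codons) at chr2:25311343-25311405, in the part that encodes the extracellular N-terminal domain. C1 is a cassette exon of 111 nt (37 codons) at chr2:25294438-25294548 and encodes a stretch of the intracellular tail with a retention signal for the endoplasmic reticulum. The last exon has alternative start points. The upstream one gives the C2 ending, with 117 coding bases at chr2:25292368-25292484. The downstream one gives the C2' ending, with 69 coding bases at chr2:25292060-25292128, which encodes a PDZ-binding tail that aids export to the surface. Both endings are shown with their stop codon.
N1: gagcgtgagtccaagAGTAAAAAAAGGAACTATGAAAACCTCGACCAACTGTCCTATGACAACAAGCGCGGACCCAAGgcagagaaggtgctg
C1: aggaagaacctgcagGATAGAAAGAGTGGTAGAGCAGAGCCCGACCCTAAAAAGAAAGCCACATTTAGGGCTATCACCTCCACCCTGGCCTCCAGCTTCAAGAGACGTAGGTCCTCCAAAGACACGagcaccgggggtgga
C2: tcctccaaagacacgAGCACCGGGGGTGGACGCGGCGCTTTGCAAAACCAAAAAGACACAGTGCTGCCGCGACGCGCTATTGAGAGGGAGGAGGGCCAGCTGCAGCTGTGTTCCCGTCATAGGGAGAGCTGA
C2': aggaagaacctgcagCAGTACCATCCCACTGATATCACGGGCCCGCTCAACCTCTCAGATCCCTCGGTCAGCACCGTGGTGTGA
The elements also differed in base composition. N1 held 44.4% G and C, C1 52.3%, C2 61.5% and C2' 59.4%. Each of the 8 coding Grin1 transcripts carries 1 combination of N1 or no N1, C1 or no C1, and C2 or C2', and all 8 combinations are annotated.

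The libraries held 28327434 and 30234441 estimated counts, with 75029 and 68108 counts in the spike-ins, and the 7 genes took 0.233% and 0.214% of the gene counts. The Poisson intervals, counting SEs and floors given here cover counting error only, and the reads carry no molecular identifiers. The credibility bounds quoted below are the authors' own scores, and their level is not stated. Defining markers of cortical neurons and glia were present, with summed levels of 1187 and 1255 TPM over 4 excitatory and 386 and 389 TPM over 3 inhibitory markers. Single markers moved apart within these sums, with Neurod6 at log2 -0.55 and Tbr1 at 0.21 (replicate 2 over replicate 1) among the excitatory ones. The 4 astrocyte markers summed to 298 and 290 TPM. The cerebellar granule markers Gabra6 and Cbln3 lay at or below 0.18 TPM, while the third, Neurod1, which cortex also expresses, had 5.37 and 5.73 TPM. All 4 markers of striatal projection neurons were detected, with summed levels of 154 and 170 TPM, in a sample labelled as cortex. These striatal markers moved both ways, with Rgs9 at 0.30, Adora2a at 0.25, Drd1 at -0.05 and Drd2 at -0.22. Of the thalamic markers Prkcd differed by 0.93, Tcf7l2 by 0.16 and Slc17a6 by -0.07. The hippocampal markers Fibcd1, Prox1 and Zbtb20 differed by 0.13, 0.03 and -0.31. The immediate early genes Arc, Fos, Egr1 and Npas4 were lower in replicate 2 in 4 of 4, with summed levels of 250 and 55.6 TPM. The part of these differences in the subunit values was not tested. In bulk tissue fewer cells of a type and less RNA per cell cannot be told apart.

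Levels are given as TPM, a share of all transcripts corrected for length, from the authors' gene table (the first table) and beside it from their separate transcript table (the second table). Of the 7 subunit genes, 6 reached 1 TPM or more in both libraries, beside 58.9% of 22015 nuclear protein-coding genes. From the highest mean to the lowest the order was Grin1, Grin2b, Grin2a, Grin2c, Grin3a, Grin2d and Grin3b. The summed level of the 7 genes was 419 TPM in replicate 1 and 429 TPM in replicate 2.

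Grin1 (ENSMUSG00000026959.13, chr2:25291181-25319187, minus strand), the gene of the obligatory subunit, stood at 157 TPM in replicate 1 and at 188 TPM in replicate 2. Its mean was 172 ± 22.3 TPM (SD, n = 2), from 11020 and 13288 counts. It ranked 431 of 22015 nuclear protein-coding genes, with 98.0% of them at or below its level, and stood above every other subunit gene in both libraries. In the second table it had 130 and 159 TPM and again led the family.

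Grin2a (ENSMUSG00000059003.12, chr16:9567898-9995560, minus strand) encodes GluN2A, the subunit that becomes prominent as cortical synapses mature. It had 107 and 106 TPM, a mean of 106 ± 1.29 TPM (SD, n = 2), from 17782 and 17656 counts. Grin2b (ENSMUSG00000030209.14, chr6:135713233-136173511, minus strand) encodes GluN2B, which dominates in young cortex and gives slower currents. It had 121 and 101 TPM, a mean of 111 ± 14.3 TPM, from 33690 and 29945 counts. The animals' values for Grin2b lay on either side of those for Grin2a, so the order of these neighbours was not larger than the spread. The second table placed Grin2a first, at 92.2 and 90.8 TPM against 73.5 and 66.2 TPM for Grin2b.

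Grin2c (ENSMUSG00000020734.13, chr11:115249169-115267243, minus strand), best known from cerebellar granule cells and also transcribed in astrocytes, had 15.9 and 15.3 TPM (mean 15.6 ± 0.410, SD, n = 2). Of the cerebellar markers Gabra6 and Cbln3 lay at or below 0.18 TPM and Neurod1 at 5.37 and 5.73 TPM. The astrocyte markers lay between 21.3 and 139 TPM. The cell source of Grin2c was not tested. Grin2d (ENSMUSG00000002771.12, chr7:45831883-45878378, minus strand), known from subcortical nuclei and cortical interneurons, had 5.01 and 5.29 TPM (mean 5.15 ± 0.198, SD, n = 2) from 424 and 514 counts. Each of these genes therefore had nearly the same TPM in both animals, and both were far below Grin2a and Grin2b.

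Grin3a (ENSMUSG00000039579.15, chr4:49661611-49845744, minus strand) encodes GluN3A, which lowers calcium entry and is best known from the early postnatal brain. It had 13.4 and 14.0 TPM (mean 13.7 ± 0.431, SD, n = 2) from 1662 and 1817 counts. Grin3a was below Grin2c in both libraries, by more than the spread of either gene. In replicate 2, however, the deposited credibility bounds met, at 14.0 to 15.7 TPM for Grin2c and 12.8 to 14.2 TPM for Grin3a. In replicate 1 they were apart, at 14.5 to 16.2 TPM for Grin2c and 12.2 to 13.6 TPM for Grin3a. By counts alone Grin3a was the higher of the pair, with an effective length of 6850 nt against 4454 nt in replicate 1. Grin3b (ENSMUSG00000035745.9, chr10:79970715-79977190, plus strand), known from motor neurons, had 0.12 and 0.11 TPM, from 6 and 4 counts. The exact 95% Poisson intervals of those counts were 2.20 to 13.1 and 1.09 to 10.2, and a floor of 3 counts corresponds to 0.060 and 0.083 TPM. Grin3b was thus at the limit of what these depths can show, and it was the only member that reached 1 TPM in neither library.

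**Figure D1:**
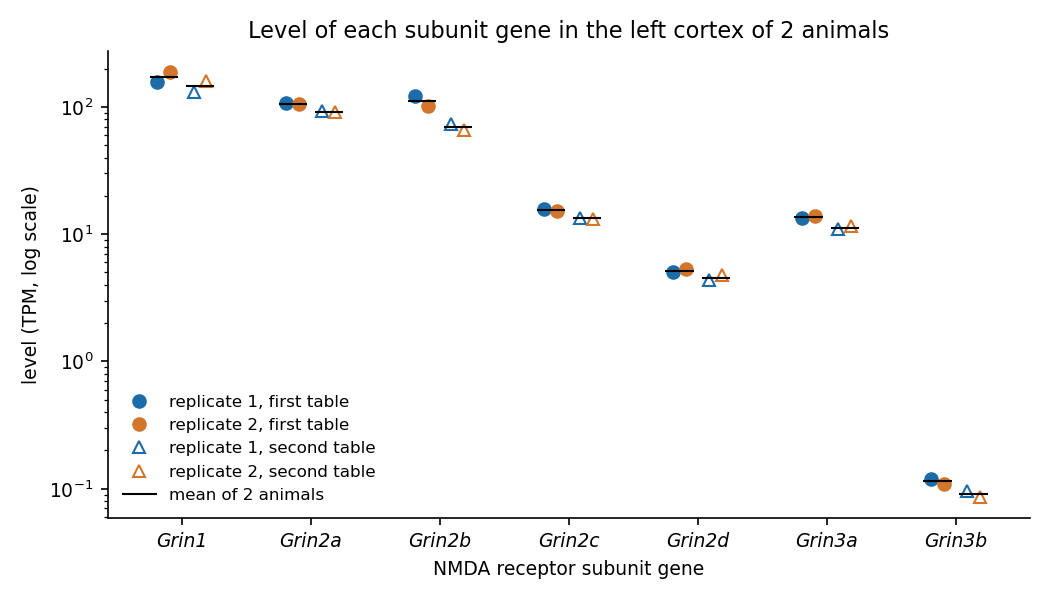
Level of each of the 7 subunit genes on a log axis in TPM; filled circles are the first table, open triangles the second, blue replicate 1, orange replicate 2, and lines the mean of both animals. Grin1 leads in both tables, Grin2a and Grin2b change places between the tables (106 and 111 TPM in the first, 91.5 and 69.9 TPM in the second), and Grin3b lies at 0.115 TPM.

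The GluN2 genes together summed to 249 and 227 TPM in replicates 1 and 2. Grin2b made up 48.5% of that sum in replicate 1 and 44.3% in replicate 2, and Grin2a 43.1% and 46.6%. Grin2c contributed 6.39% and 6.77%, and Grin2d 2.01% and 2.33%. Grin2a and Grin2b thus held 91.6% and 90.9% of the GluN2 level in the 2 animals, with the remainder shared by Grin2c and Grin2d. The ratio of Grin2b to Grin2a was 1.12 in replicate 1 and 0.952 in replicate 2 (mean 1.04 ± 0.121, SD, n = 2), so the animals fell on opposite sides of 1.

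That ratio depended on which transcripts were counted. Short annotated transcripts without a complete coding sequence weigh little in counts but much in TPM. The noncoding transcripts of Grin2a took 26.8% and 29.5% of its TPM but 4.50% and 4.90% of its counts, and 602-nt Grin2a-205 alone took 14.7% and 15.7% of the TPM. With complete coding transcripts only, Grin2a had 78.6 and 74.5 TPM and Grin2b 91.5 and 80.4 TPM. The ratio of Grin2b to Grin2a was then 1.16 and 1.08 in the first table and 1.15 and 1.04 in the second. Over messages that can encode the whole subunit, the 2 tables gave like values, and Grin2b was the higher in both animals, by 1.04 to 1.16 times. This restriction to complete coding transcripts was chosen after the values were seen. Without it the second table gave 0.798 and 0.730, and all transcripts annotated as protein-coding gave 1.45 and 1.35 in the first table.

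The summed GluN2 genes stood at 1.59 times Grin1 in replicate 1 and 1.21 times in replicate 2 (mean 1.40 ± 0.272, SD, n = 2). On complete coding transcripts the ratio was 1.28 and 1.06 in the first table and 1.24 and 1.04 in the second. The ratio was above 1 and lower in replicate 2 on each of these bases. The GluN3 genes, in effect Grin3a, stood at 0.0862 and 0.0749 times Grin1, and the GluN2 sum was 18.5 and 16.1 times the GluN3 sum. These are ratios of RNA levels, and subunit protein was not measured.

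The N1 exon was present in 24.7% of the coding Grin1 level in replicate 1 and 26.1% in replicate 2 (mean 25.4 ± 0.974%, SD, n = 2). Most coding Grin1 RNA in these cortices therefore lacked the capitalised N1 sequence. The deposited posterior means, a second estimate in the same table, gave 25.1% and 26.9%, and the second table gave 28.0% and 26.0%. All 6 values lay between 24.7% and 28.0%. The transcripts with N1 also have a shorter annotated 5′ end than those without it, and the part of this in these shares was not tested.

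The C1 exon was present in 55.6% of the coding level in replicate 1 and 51.0% in replicate 2 (mean 53.3 ± 3.28%, SD, n = 2). The C2' ending took 45.7% and 41.6% (mean 43.7 ± 2.90%). The other estimates placed C1 between 51.2% and 55.7% and C2' between 41.7% and 47.4%. Both elements had the lower value in replicate 2 in each of the 3 estimates, while the direction for N1 was not the same in all of them.

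The C-terminal elements were not combined evenly. The form with C1 and C2 held 42.7% and 42.8% of the coding level, and the form with C2' alone, without C1, held 32.7% and 33.5%. C2 alone held 11.6% and 15.6%, and C1 with C2' 13.0% and 8.15%. Among messages with the C2 ending 78.6% and 73.3% carried C1, whereas among those with C2' 28.4% and 19.6% did. The posterior means gave 80.1% and 74.2% against 27.1% and 19.5%, and those of the second table were 78.8% and 74.2% against 25.8% and 19.0%. Thus the commonest tails were those with the retention element and the C2 ending, or with the PDZ-binding C2' ending and no retention element, in both libraries and by every estimate. C1 lies next to the last exon in the message, so single reads can span that junction.

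How N1 was shared among the tails could not be read from these tables. N1 lies 2019 nt upstream of C1 in Grin1-208, which holds both, and the 3 estimates gave different answers. Within the form with C1 and C2, N1 was placed at 0.332% and 5.61% by the first table, 18.2% and 24.4% by its posterior means and 43.4% and 39.5% by the second table. For C2 alone the values were 100% and 100%, 59.0% and 71.9%, and 43.1% and 39.1%. For the form with C2' alone N1 was at 0% in the first and second tables and at 7.03% and 2.64% by posterior means. The low share in the C2'-alone form was thus common to all 3 estimates, and the shares in the other forms were not. In that form Grin1-205, without N1, is annotated at 3838 nt and Grin1-207, with N1, at 3809 nt. Both have 879 nt of 3′ UTR, and N1 adds 63 nt, so the annotated 5′ end of Grin1-205 is longer. Such a difference is not particular to this form. Grin1-204, with N1, is annotated at 4276 nt and Grin1-201, without it, at 4238 nt, less than 63 nt apart. In every form the transcript with N1 has the shorter annotated 5′ end. Reads at the 5′ end can separate these transcripts apart from N1. The part of this in the low share and in the other N1 shares was not tested.

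**Figure D2:**
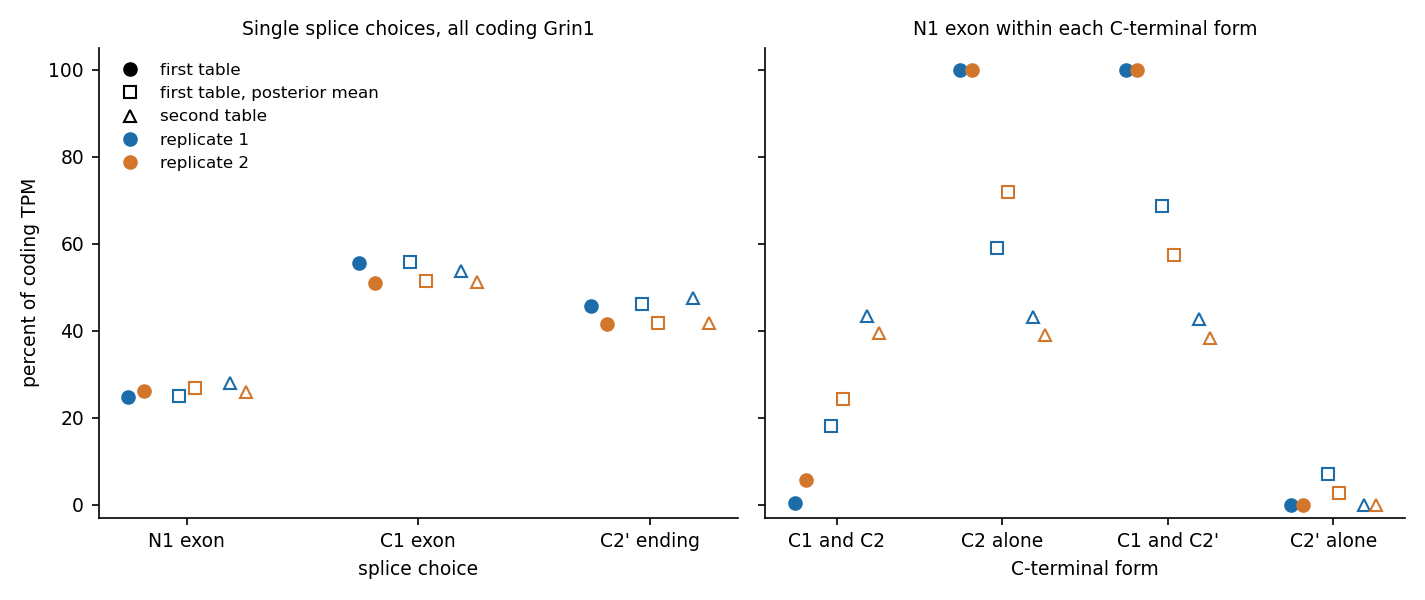
Percent of the coding Grin1 level with each splice choice (left) and percent with the N1 exon inside each C-terminal form (right); circles are the first table, squares its posterior means, triangles the second table, blue replicate 1, orange replicate 2. The single choices lie close together over the 3 estimates (N1 from 24.7% to 28.0%), while N1 within the C1 and C2 form ranges from 0.332% to 43.4%.

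Single transcripts carried the same uncertainty. Grin1-201, with C1 and C2 and no N1, led the first table at 40.3% and 35.7% of the Grin1 level, a mean of 38.0 ± 3.25% (SD, n = 2). Its posterior mean share was 33.3% and 28.7%, and in the second table it held 21.9% and 22.6%, where Grin1-205 led at 32.9% and 29.2%. Grin1-205, with C2' and neither cassette, was steadier over the estimates, from 28.7% to 32.9%. Grin1-204, which adds N1 to the form of Grin1-201, had 0.130% and 2.12% in the first table and 16.8% and 14.8% in the second. The sum of Grin1-201 and Grin1-204 is the C1 and C2 form, whose share moved little between the tables.

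**Figure D3:**
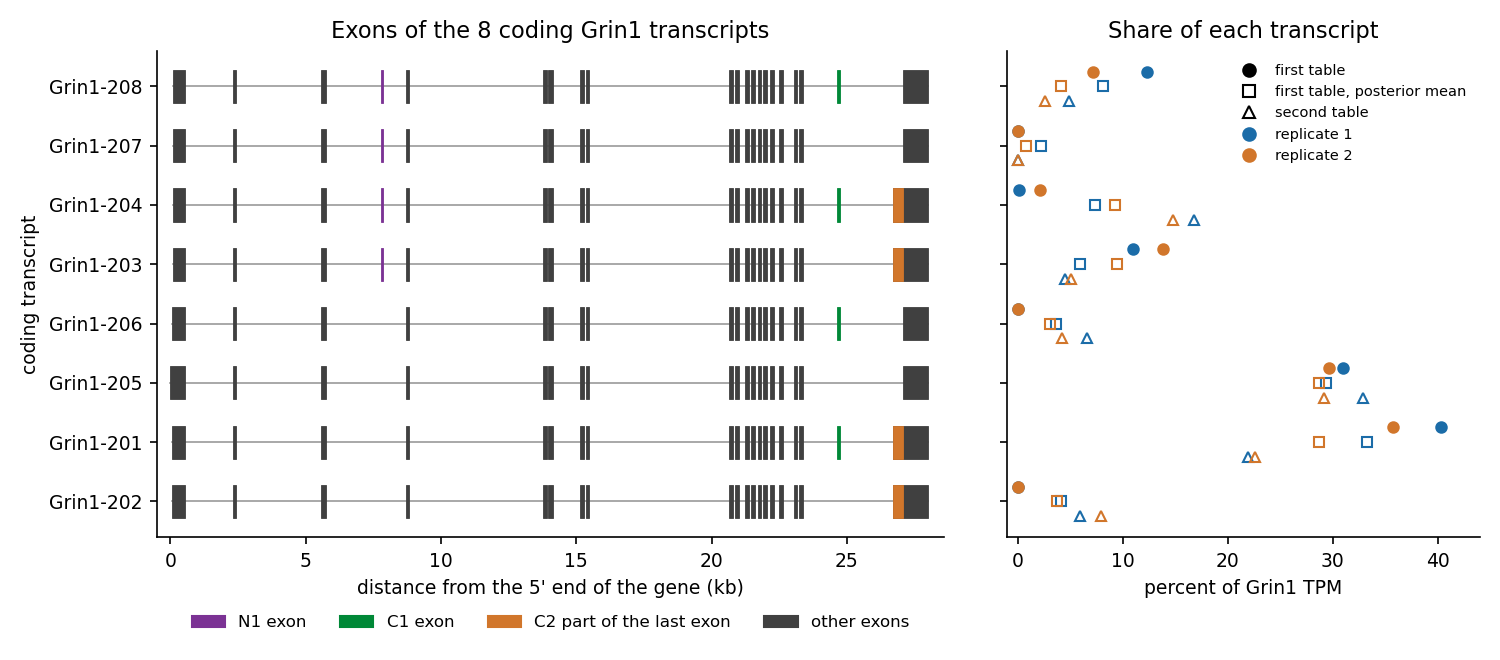
Exons of the 8 coding Grin1 transcripts against distance from the gene's 5′ end in kb (left; N1 purple, C1 green, the part of the last exon present only with C2 orange) and the share of each in the Grin1 level in percent (right; circles first table, squares posterior means, triangles second table, blue replicate 1, orange replicate 2). Grin1-201 and Grin1-205 hold the largest shares, and Grin1-201 ranges from 21.9% to 40.3%.

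Grin1 also has 6 annotated noncoding transcripts. Of these, 4 hold 29.3% to 77.8% of their bases outside the coding exons, so reads from introns can be assigned to them. Grin1-214 (3437 nt) had 210.8 estimated counts in replicate 1 and 479.1 in replicate 2, and Grin1-211 (3024 nt) had 129.8 and 281.6. The smaller Grin1-213 (731 nt) had 18.81 and 60.55 counts, and Grin1-212 (634 nt) 6 and 35.41. Together the noncoding transcripts took 3.32% of the Grin1 counts in replicate 1 and 6.48% in replicate 2, or 8.19 and 22.0 TPM. The second table gave 220.9 and 512.3 counts for Grin1-214. All 4 intron-bearing transcripts were thus higher in replicate 2, at log2 1.05 for Grin1-214, 0.98 for Grin1-211, 1.55 for Grin1-213 and 2.42 for Grin1-212 after TMM scaling, the last 2 from fewer than 50 mean counts. Beside them stand 4900 retained-intron and processed transcripts of nuclear protein-coding genes whose mean count reached 50. Of these, 65.8% were higher in replicate 2 by any amount and 10.4% by more than 2-fold. Their median log2 difference was 0.21, and their share of counts was 4.71% and 5.49%. The coding transcripts of Grin1 alone had 10655 and 12427 counts, a log2 difference of 0.08 (counting SE 0.0190).

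The other subunit genes varied mainly outside the coding sequence. Every complete transcript of Grin2a encodes the same length of 4392 nt, and every complete transcript of Grin2b 4446 nt. The form with the long 3′ end, Grin2a-206 (14634 nt, of which 9929 nt are 3′ UTR), took 72.6% and 73.2% of the complete coding level. Its counterpart Grin2b-201 (24060 nt, with 18865 nt of 3′ UTR) took 76.0% and 73.0%, and 84.9% and 81.2% in the second table. Among complete coding transcripts both genes were thus represented mostly by their longest annotated messages. Of the whole gene level, Grin2a-206 held 53.2% and 51.6% in the first table and 50.8% and 49.2% in the second. Grin2b-201 held 57.6% and 58.3% in the first table and 83.4% and 78.7% in the second. Grin2c-202 took 44.7% and 52.6% of Grin2c, and Grin2d-201 took 59.1% and 62.4% of the complete coding level of Grin2d, with the same coding length as the alternative in each gene.

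Grin3a is the other member with a coding choice between complete transcripts. Grin3a-202 carries 60 extra coding bases (20 codons) at chr4:49665566-49665625 on the minus strand, 112 codons before the stop codon, in the intracellular tail. The insert is shown in capitals between 15 bases of neighbouring coding sequence, read from the GENCODE M21 transcripts of GRCm38. It begins inside a codon, since triplets read from its first capital would meet the stop codon TGA.
Grin3a insert: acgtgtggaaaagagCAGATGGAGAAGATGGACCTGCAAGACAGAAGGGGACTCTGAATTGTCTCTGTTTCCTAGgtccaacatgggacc
The form with the insert took 21.2% of the complete coding Grin3a level in replicate 1 and 15.8% in replicate 2. The second table gave 19.3% and 15.0%, so the shorter form was the commoner in both animals and both tables.

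Differences between the animals were computed as log2 of replicate 2 over replicate 1 on counts scaled by TMM, with a counting SE that covers sampling of reads and not variation among animals. Members were compared where their mean count was 50 or more. Of these 6 members, 0 lay beyond 2-fold, beside 1.25% of 14122 genes. Without that minimum 0 of 7 did, beside 18.9% of genes. In replicate 2, 4 members were lower and 2 higher, beside 54.4% and 45.6% of genes. Their median log2 difference was -0.06 and their median absolute difference 0.14, against -0.02 and 0.15 over all genes, whose central 95% ran from -0.57 to 0.69. The subunit genes thus lay inside the range of most genes. Spike-in scaling moved every log2 difference up by about 0.28, and directions are given on both scalings where they part.

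Grin2b had the largest difference among the 6, at -0.31 (counting SE 0.0115), and 78.5% of all genes differed less. With TMM it was the only member past 1.2-fold, beside 27.4% of all genes in either direction and 13.1% that were lower in replicate 2. With spike-in scaling 3 members, Grin1, Grin2d and Grin3a, were past 1.2-fold higher and 0 past it lower, beside 48.1% and 3.03% of all genes on that scale. The Grin2b difference on that scale was -0.03, so the sign stayed and most of the size did not. Its deposited credibility bounds for TPM did not overlap, at 111 to 126 TPM in replicate 1 and 93.3 to 103 TPM in replicate 2. Grin1 differed by 0.13 (counting SE 0.0186), or 0.41 with spike-in scaling, and its bounds of 149 to 155 and 178 to 186 TPM were also apart. Over all genes the bounds were apart for 19.8%, higher in replicate 2 for 13.9% and lower for 5.87%, and among the 6 members for 1 in each direction. The Grin1 levels of 157 and 188 TPM lie just above their own deposited bounds, and the reason was not tested. With 1 library per animal these differences have no replicate check.

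The remaining members differed by less than 1.2-fold with TMM. Grin2d was 0.14 higher in replicate 2 (counting SE 0.0946), or 0.42 higher with spike-in scaling. Grin2a was -0.15 with TMM and 0.13 with spike-in scaling, Grin2c was -0.12 and 0.16, and Grin3a was -0.01 and 0.27, so the direction of these 3 genes depended on the scaling. For Grin3a total-count scaling also gave a positive value, 0.03.

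**Figure D4:**
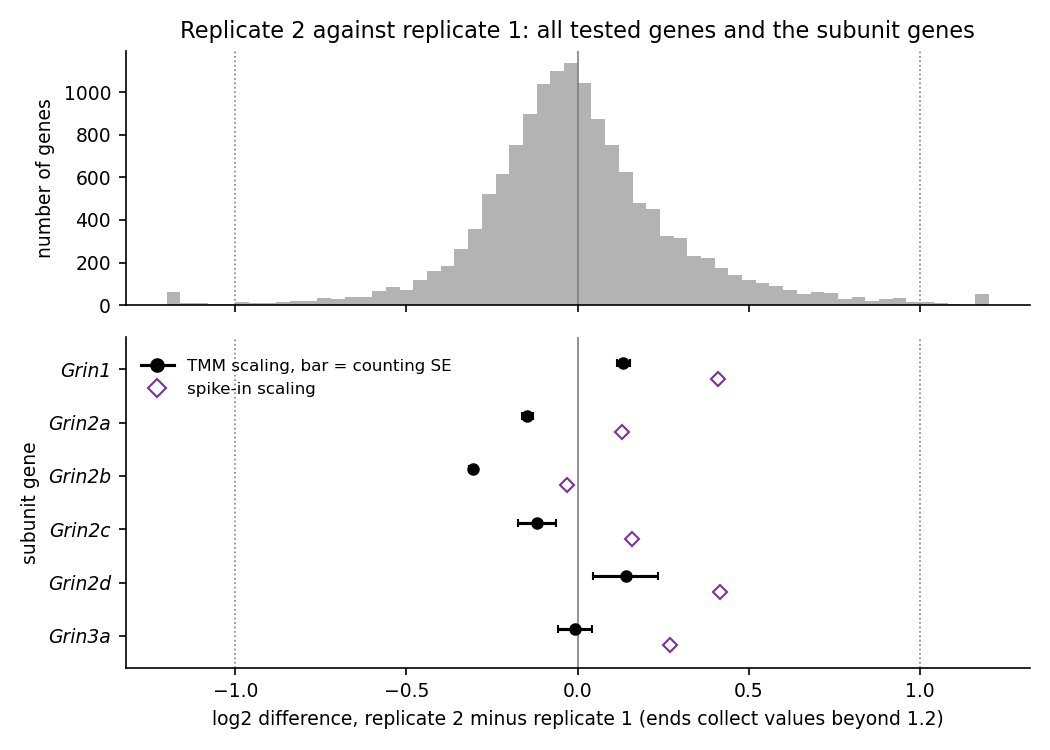
Number of genes at each log2 difference between the libraries for 14122 genes (top), and the log2 differences of the 6 subunit genes with enough counts (bottom); circles with counting SE bars are TMM scaling, diamonds spike-in scaling, and dotted lines mark 2-fold. Every subunit gene lies inside the 2-fold lines, with Grin2b lowest at -0.31.

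Other genes overlap the subunit genes, and the sources used here do not say whether the authors counted by strand. Grin1os, antisense to Grin1, had 1 count in each library, and the intron-bearing Grin1 transcripts share no base with its exons. Gm26653, antisense at the 5′ end of Grin2b, had 20 and 11 counts beside 33690 and 29945 for Grin2b. Grin2d overlaps Kdelr1 (799 and 842 counts) and Gm45441 (84 and 87 counts) on the other strand. Grin3b overlaps Tmem259 (1856 and 1973 counts) on the other strand. These are overlaps of gene spans, and the part of overlap in the low levels of Grin2d and Grin3b was not tested. Ppp3r2, within Grin3a on the same strand, had 13 and 17 counts.

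The partner list held 56 genes that supply, anchor, move, modify or act downstream of the receptor. At 1 TPM or more in both libraries, 55 of the 56 were detected, beside 58.9% of nuclear protein-coding genes. The exception was Dao, a D-serine oxidase, at 0.04 and 0.14 TPM. Of the 54 with enough counts, with TMM, 0 differed more than 2-fold between the animals, beside 1.25% of all genes. On the same scaling 1 was more than 1.2-fold higher in replicate 2 and 4 were more than 1.2-fold lower, beside 14.3% and 13.1% of all genes. With spike-in scaling 25 were more than 1.2-fold higher and 0 lower, beside 48.1% and 3.03%. The median log2 difference with TMM was -0.05.

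Among the 11 genes of co-agonist supply and clearance, Psat1, an enzyme of serine synthesis, was highest at 59.1 and 54.8 TPM. Srr, the serine racemase that makes D-serine, followed at 37.2 and 38.6 TPM. Slc6a9, the glycine transporter GlyT1, had 22.0 and 28.7 TPM and a log2 difference of 0.39 (0.66 with spike-in scaling), the only partner more than 1.2-fold higher in replicate 2 with TMM. Psph, the last enzyme of serine synthesis, had 10.3 and 9.01 TPM and a difference of -0.38 (-0.10 with spike-in scaling), and is named because of its value. All 11 co-agonist genes were below Grin2a and Grin2b in level.

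The 4 membrane scaffolds, which hold the receptor in the postsynaptic density, were all detected. With TMM 0 of the 4 passed 1.2-fold, beside 27.4% of all genes. With spike-in scaling 1 did, Dlg4 at 0.29, beside 48.1% of all genes past it higher and 3.03% lower. Dlg4, which encodes PSD-95, had 388 and 402 TPM, and Dlg2, which encodes PSD-93, had 140 and 134 TPM. Dlg1 had the largest difference of the scaffolds with TMM, at -0.13, and 0.14 with spike-in scaling. Dlg4 thus stood above Grin1 in both libraries, while Dlg2 lay between Grin1 and Grin2b.

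Of the 8 trafficking genes, Pacsin1, an endocytic adaptor that binds GluN3A, had 177 and 178 TPM, and Lin7b, part of the complex that loads GluN2B onto its motor, 60.4 and 81.5 TPM. Snx27, a sorting nexin with a PDZ domain, had 59.0 and 50.8 TPM and a difference of -0.35 (-0.07 with spike-in scaling). The 15 kinases and phosphatases included Camk2a, the calcium-dependent kinase that binds GluN2B, at 1048 and 1167 TPM. Ppp3ca, a catalytic subunit of calcineurin, had 424 and 468 TPM, and Dapk1, a death-associated kinase that binds GluN2B, had 41.7 and 37.6 TPM with a difference of -0.22 (0.05 with spike-in scaling). Camk2a was the highest of the 56 partners in mean level.

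The 9 calcium effectors were led by Calm2, a calmodulin gene, at 1053 and 1064 TPM. Kalrn, a regulator of dendritic spine shape, had 206 and 261 TPM and a difference of 0.14. Among 5 extracellular and membrane modulators, Lrp8, a reelin receptor, had 43.7 and 37.8 TPM, and Reln, its ligand, 28.7 and 31.6 TPM. Ephb2, an ephrin receptor that binds GluN1, had 7.66 and 6.86 TPM and a difference of -0.29 (-0.01 with spike-in scaling). Of the 4 transcription regulators, Creb1 had 26.9 and 22.4 TPM and a difference of -0.32 (-0.04 with spike-in scaling), and Sp4 had 14.6 and 14.9 TPM. The 4 partners past 1.2-fold in the lower direction with TMM were thus Psph, Snx27, Ephb2 and Creb1, each in a different role, and each lay within 0.10 of 0 on the spike-in scale.

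**Figure D5:**
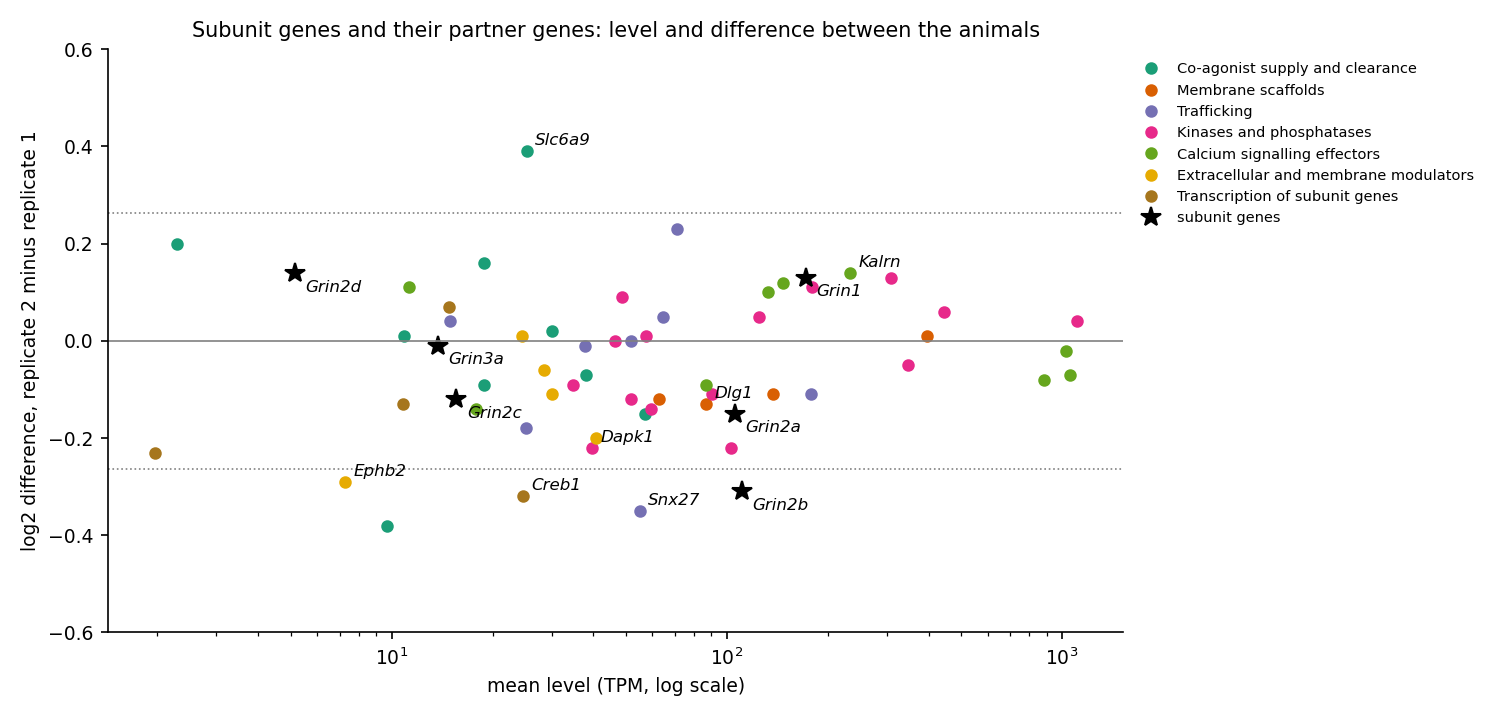
Mean level (TPM, log axis) against the log2 difference between the animals (TMM scaling) for 54 partner genes, coloured by role, and 6 subunit genes as stars; dotted lines mark 1.2-fold. Slc6a9 at 0.39 lies above the upper line, and Grin2b at -0.31 and 4 partners lie below the lower one.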

How the data were processed

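Total RNA was measured in 2 libraries of left cerebral cortex, 1 per animal. Mapping used mm10 and GENCODE M21, per the readme deposited with each library. For the aligner, the quantifiers, their versions and the use of strand the sources used here give nothing. Per the file headers, the first gene and transcript tables have the layout RSEM writes and the second transcript table that of kallisto. Expected counts are the authors' estimated counts, not normalized. TPM values were length-scaled by the authors over all features. Each transcript's percent of its gene is deposited too, as are credibility bounds and posterior SDs, treated as scores whose level is not stated. Effective lengths are 100 nt below annotated ones in the first table and 248 nt in long transcripts of the second. Hybrid reads were assigned on the reference genome, and alleles were not analysed here.

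Expected counts were rounded for edgeR 4.0.16 (R 4.3.3), scaled by TMM and given as log2 CPM with a prior count of 1, where the mean count was 50 or more, after a check on simulated counts with 200 changed genes. DESeq2 1.42.0 gave alternative size factors. Levels are means ± SD of TPM. Transcripts were grouped by exon content from the annotation. The members, the partner and marker lists and the rule for naming partners were chosen with earlier results of these data known. The rule names, in each role, the 2 partners of highest level and the 1 with the largest difference; 1 gene it names is not reported here. No gene was named for likeness of pattern, since 2 libraries of 1 group give none. Alternatives were other scalings, filters, prior counts, tables, transcript sets and leaving out each replicate; the complete-coding and splice-element values and their alternatives, and the 1.2-fold counts with spike-in scaling, were chosen after seeing the data.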

Additional observations from a re-analysis of the deposited data

How the results depend on the processing

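Using the second table gave a Grin2b to Grin2a ratio of 0.764, protein-coding transcripts 1.40 and counts without length scaling 1.80, against 1.04. Counts also moved the ratio of summed GluN2 genes to Grin1 from 1.40 to 4.27. The mean share of Grin1-201 moved from 38.0% to 31.0% with posterior means and 22.2% in the second table, and the N1 share from 25.4% to 27.0% in the second table. Without the count filter 1 partner, Dao (1 and 5 counts), passed 2-fold, beside 18.9% of genes. The cause was not tested beyond what each construction shows: counts keep transcript length, and a filter removes low genes. Using 1 animal at a time gave 0.952 to 1.12 for Grin2b to Grin2a, 1.21 to 1.59 for GluN2 to Grin1, 35.7% to 40.3% for Grin1-201, 24.7% to 26.1% for N1, 51.0% to 55.6% for C1 and 41.6% to 45.7% for C2'. Levels of 7 of 7 members moved beyond their SD in the second table. Spike-in scaling moved 6 of 7 log2 differences beyond the 95% range of their counting SE, and total counts 3 of 7. No paired analysis was possible because both libraries form 1 group. Depth limits Grin3b, at 6 and 4 counts.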
